A study of Rattus norvegicus with 48 samples.

Results

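Serum of insulin-treated Zucker Diabetic Fatty (ZDF) rats (n = 4) was compared with serum of placebo-treated WT rats (n = 5). These 9 libraries were taken by their labelled tissue, group and treatment from 32 serum libraries and 48 libraries in all, and no measured value entered the choice. ZDF rats carry a leptin receptor mutation on both alleles (fa/fa) and develop type 2 diabetes on their own, and the WT animals were Zucker lean rats. All rats were male, were fed the same high-fat, high-carbohydrate chow and carried a surgical femur defect. Injections were given under the skin every day for 12 weeks, and the dose of insulin was raised over that time. The labels give no age. Placebo-treated ZDF serum (n = 5) was kept as context, and no WT group received insulin, so genotype and insulin differ together in the main comparison and their parts cannot be told apart. The comparison asks which circulating miRNAs of insulin-treated ZDF rats were still unlike those of WT rats.

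MiRNAs are short RNAs that pair through their seed, the bases at positions 2 to 8, with messenger RNAs and lower the output of these messengers. They leave cells in vesicles, lipoproteins and protein complexes, so serum holds a mixture from blood cells, liver, muscle, endothelium and other tissues. MiR-451 and miR-144 are made in red cell precursors, miR-122 in hepatocytes, miR-375 in pancreatic islets and endocrine cells, and miR-133a in skeletal and heart muscle. The miR-199a/214, miR-99/100 and miR-125 groups are abundant in mesenchymal cells such as fibroblasts and osteoblasts. In serum, as in any bulk sample, fewer cells of a type and less RNA from each cell cannot be told apart.

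The mature sequences of the miRNAs on which the results turn are shown 5′ to 3′, with the seed in capitals. They were read from RefSeq (build GRCr8), where 23 of the 30 miRNAs called in the main comparison had an entry. MiR-25-3p, miR-93-5p and miR-106b-3p came from 1 hairpin cluster of 472 bases on chromosome 12, within the span of Mcm7, and were higher in insulin-treated ZDF serum. MiR-144-5p and miR-451-5p lay within 198 bases on chromosome 10 and were also higher, as was miR-375-3p. MiR-25-3p maps to chr12:22156652-22156673 and miR-93-5p to chr12:22156894-22156916, both on the minus strand. MiR-144-5p maps to chr10:63459409-63459431 and miR-451-5p to chr10:63459585-63459606, both on the plus strand. MiR-375-3p maps to chr9:83906591-83906612 on the minus strand, within the span of Cryba2.
miR-25-3p: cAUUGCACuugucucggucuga
miR-93-5p: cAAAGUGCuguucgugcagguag
miR-106b-3p: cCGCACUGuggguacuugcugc
miR-144-5p: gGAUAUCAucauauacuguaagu
miR-451-5p: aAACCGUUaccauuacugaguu
miR-375-3p: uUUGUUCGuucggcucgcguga

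The next sequences belong to miRNAs that were lower in insulin-treated ZDF serum and are shown because several share a seed or a locus. MiR-199a-3p, miR-199a-5p and miR-214-3p lay within 5479 bases on chromosome 13, inside the span of Dnm3. MiR-99b-5p and miR-125a-5p lay within 643 bases on chromosome 1, inside the span of Spaca6. MiR-100-5p and miR-99b-5p had the same seed, ACCCGUA, and miR-125a-5p and miR-125b-5p shared CCCUGAG. On the plus strand, miR-199a-3p maps to chr13:77116294-77116315, miR-214-3p to chr13:77121713-77121733, miR-99b-5p to chr1:67350070-67350091 and miR-100-5p to chr8:50798307-50798328, the last within the long non-coding RNA gene Lnc215. The table used gives gene spans, so exons and introns were not assigned.
miR-199a-3p: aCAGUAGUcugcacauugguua
miR-199a-5p: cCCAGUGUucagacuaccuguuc
miR-214-3p: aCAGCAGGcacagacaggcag
miR-100-5p: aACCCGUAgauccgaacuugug
miR-99b-5p: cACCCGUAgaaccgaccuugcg
miR-125a-5p: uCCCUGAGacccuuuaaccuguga
miR-125b-5p: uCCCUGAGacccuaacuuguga
miR-218a-5p: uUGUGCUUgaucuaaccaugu
miR-10a-5p: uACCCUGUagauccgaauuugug
miR-10b-5p: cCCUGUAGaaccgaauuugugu
miR-29a-3p: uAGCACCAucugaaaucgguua
miR-133a-3p: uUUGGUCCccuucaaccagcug
MiR-10a-5p and miR-10b-5p differed by 1 base over 21 aligned bases and miR-29a-3p and miR-29c-3p by 1 base over 22. Reads of such pairs can be shared by the authors' mapping, which allowed a mismatch, and their separate values are uncertain. The entries for miR-802-5p, miR-320-3p, miR-150-5p, miR-99a-5p, miR-301a-3p, miR-486 and miR-15a-5p are named only. Without a sequence, miR-99a-5p could not be compared with its family member miR-100-5p, and the same limit of the mapping may hold for this pair.

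The miRNA reads per library ranged from 60344 to 113163 under insulin and from 64957 to 205664 in WT, and were 1.02% to 2.89% of all reads of a library. The most abundant miRNAs over the 9 libraries, miR-191a-5p, miR-16-5p, miR-451-5p, miR-486 and miR-92a-3p, are those of blood cells and serum. Their levels, in CPM (miRNA reads scaled to a common library size after TMM normalization), had medians of 108737, 98290, 138935, 132877 and 87635 under insulin and of 128175, 68218, 29526, 60631 and 52666 in WT. Of 466 miRNAs with a read, 154 passed the filter on low counts, and these held 99.0% to 99.6% of the miRNA reads. Libraries of the same group differed by more than counting noise in all 26 pairs, with 10.8 to 214 for chi-squared over its degrees of freedom, so none was a copy of another. The labels do not say whether the libraries were prepared in batches.

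In insulin-treated ZDF serum 30 of 154 miRNAs (19.5%) differed from WT at a false discovery rate below 0.2 (FDR, the p-value of edgeR's quasi-likelihood test after Benjamini-Hochberg adjustment). Of these, 12 were higher (7.79%) and 18 lower (11.7%). The higher miRNAs were miR-802-5p, miR-144-5p, miR-106b-3p, miR-375-3p, miR-25-3p, miR-451-5p, miR-93-5p, miR-301a-3p, miR-486, miR-505-3p, miR-320-3p and miR-15a-5p, with log2 fold changes of 0.76 to 1.84. The lower ones were miR-199a-3p, miR-218a-5p, miR-100-5p, miR-133a-3p, miR-125b-5p, miR-10b-5p, miR-99a-5p, miR-99b-5p, miR-150-5p, miR-199a-5p, miR-152-3p, miR-214-3p, miR-3473, miR-10a-5p, miR-146a-5p, miR-125a-5p, miR-29a-3p and miR-24-3p, with log2 fold changes of -2.52 to -0.86. At an FDR below 0.05 there were 2, miR-199a-3p and miR-802-5p. The groups did not overlap in CPM for 9 of the 30, against 11 of the 154 tested (7.14%). Of the 9, 6 were higher and 3 lower, against 7 (4.55%) and 4 (2.6%) of the 154. The number of calls rested on few libraries: it was 2 without insulin replicate 3, 8 without insulin replicate 1, 18 without WT replicate 4 and 44 without insulin replicate 2, and miR-199a-3p and miR-802-5p alone were called in all 9 fits that left out a library. Scaling by total miRNA reads in place of TMM moved the median of the 154 from -0.04 to -0.41 and gave 7 higher and 44 lower, and scaling by the controls added at extraction moved it to -0.16 and gave 0 higher and 5 lower, with 12 at an unadjusted p below 0.05.

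**Figure D1:**
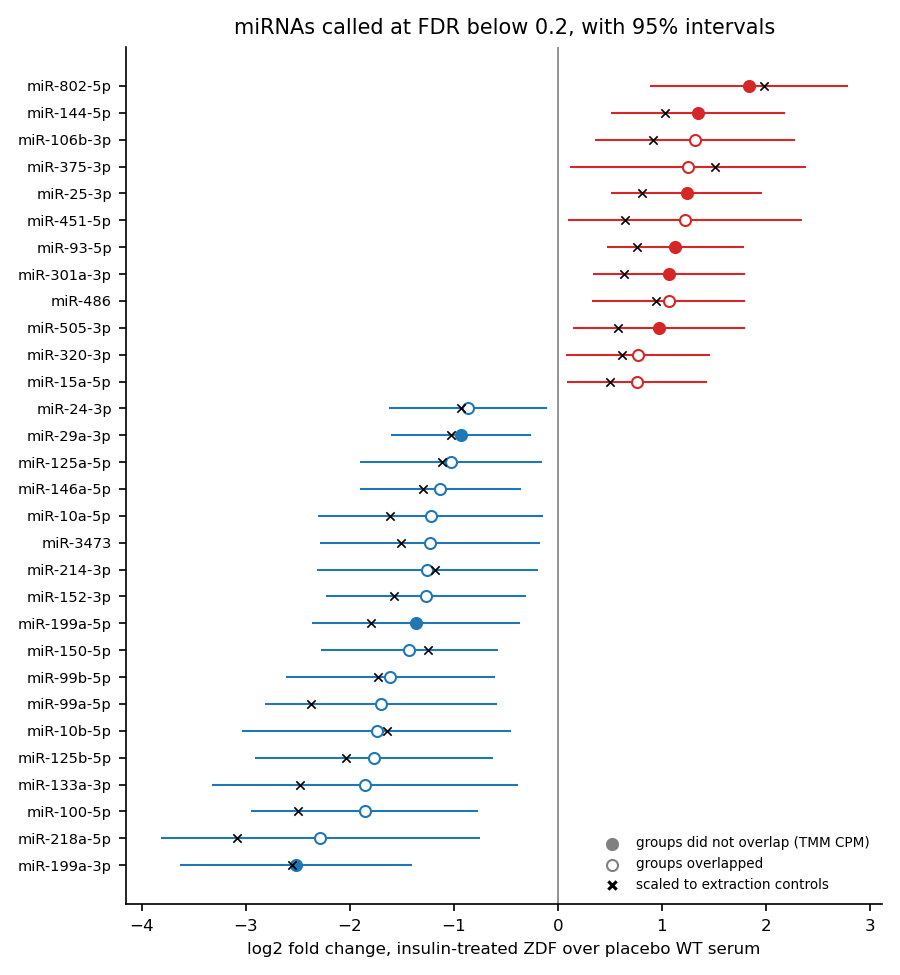
The log2 fold change of each of the 30 called miRNAs (insulin-treated ZDF over placebo WT serum, horizontal axis) with its 95% interval, red where higher and blue where lower. Filled circles mark the 9 whose groups did not overlap, and crosses give the fold change after scaling to the extraction controls, which keeps the direction of all 30 but lies nearer to 0 for 10 of the 12 higher ones.

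Of the 12 miRNAs that the study names for placebo-treated ZDF against WT serum, 10 could be fitted in the main comparison, and 6 of them were called, 3 higher and 3 lower, against 30 of 154 miRNAs overall (19.5%). Without insulin replicate 3, and likewise without insulin replicate 1, 1 higher and 1 lower were called. With extraction controls the counts were 0 and 3, and with all serum groups in 1 fit 0 and 1. These 12 were named from sera that include the same 5 WT libraries, so the list is not independent evidence of a direction. MiR-802-5p, a miRNA of liver that is raised in obesity, was at 294, 588, 312 and 386 CPM in the 4 insulin libraries and at 176, 89.3, 94.1, 179 and 46.0 in the 5 WT libraries. The groups did not overlap, and the lowest insulin library was above the highest WT library. The log2 fold change was 1.84 ± 0.46 (SE, FDR = 0.0464), and it stayed between 1.61 and 2.10 when each library was left out. The call was lost with extraction controls and with all serum groups in 1 fit. Reads for miR-802-5p numbered only 19 to 43 per insulin library and 6 to 36 per WT library. In placebo-treated ZDF serum its level was 218 to 1143 CPM, with a log2 fold change of 2.71 ± 0.48 against WT (FDR = 0.00475), while insulin-treated against placebo-treated ZDF serum gave -0.95 ± 0.42 (FDR = 0.165).

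MiR-375-3p, which is enriched in pancreatic islets, was at 1439, 1093, 927 and 2297 CPM under insulin and at 1674, 347, 181, 849 and 176 CPM in WT. WT replicate 1 lay among the insulin libraries and the other four WT libraries lay below them. The log2 fold change was 1.25 ± 0.54 (FDR = 0.169), and the call was lost in 6 of 9 fits with a library left out. Placebo-treated ZDF serum, at 1555 to 5531 CPM, gave 2.30 ± 0.58 against WT (FDR = 0.0262). MiR-320-3p was at 9639, 10347, 10153 and 16243 CPM under insulin and at 12225, 4752, 5740, 6272 and 7519 CPM in WT, and again WT replicate 1 alone was within the insulin range. Its log2 fold change was 0.77 ± 0.33 (FDR = 0.169) beside 0.82 ± 0.33 (FDR = 0.321) for placebo-treated ZDF against WT serum.

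The other miRNAs named as higher did not pass the test in the main fit, although miR-192-5p and miR-122-5p did once the hemolysis ratio described further on was a covariate, at 1.89 (FDR = 0.0112) and 1.26 (FDR = 0.164). Of the WT libraries only replicates 3 and 5 had such a ratio, built on miR-451-5p, within the insulin range. MiR-192-5p was at 1013 and 1120 CPM in them and at 3780 to 5390 CPM in the other WT libraries. Without WT replicates 3 and 5, and without the covariate, it gave -0.20. MiR-122-5p, the main miRNA of hepatocytes, was at 170, 533, 272 and 183 CPM under insulin and at 196, 308, 181, 193.7 and 107.4 CPM in WT. The groups overlapped, and insulin replicate 2 was the only library above the WT range. The log2 fold change was 0.64, with a 95% interval of -0.31 to 1.58, which holds 0. For miR-145-5p, which is abundant in smooth muscle, the log2 fold change was 0.35 (-0.38 to 1.07), and for miR-192-5p, a miRNA of gut, kidney and liver, it was 0.32 (-0.64 to 1.28). Placebo-treated ZDF serum gave 1.94 ± 0.54, 1.07 ± 0.34 and 1.74 ± 0.49 for the same miRNAs against WT, in the order miR-122-5p, miR-145-5p and miR-192-5p. MiR-122-3p and miR-31a-5p were too rare for the fit, with 5 to 17 and 2 to 9 reads per insulin library. MiR-122-3p was at 77.4, 232, 70.5 and 142 CPM under insulin and at 76.7 to 119 CPM in WT, and miR-31a-5p at 40.7 to 123 CPM under insulin and 59.5 to 146 CPM in WT, each with an exact permutation p of 0.508.

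Among the miRNAs named as lower, 3 of 4 were called lower in insulin-treated ZDF serum. MiR-199a-3p was at 46.4, 260, 70.5 and 102 CPM under insulin and at 264, 496, 709, 909 and 1289 CPM in WT. The groups did not overlap, although insulin replicate 2 lay just below WT replicate 1. The log2 fold change was -2.52 ± 0.54 (FDR = 0.0191) and lay between -3.13 and -2.21 with each library left out. Placebo-treated ZDF serum was at 121 to 347 CPM, with -1.82 ± 0.43 against WT (FDR = 0.0262) and -0.74 ± 0.50 for insulin over placebo in ZDF (FDR = 0.384). MiR-100-5p was at 124, 301, 242 and 366 CPM under insulin and at 494, 258, 1954, 834 and 1389 CPM in WT, with WT replicate 2 inside the insulin range (-1.85 ± 0.53, FDR = 0.0564). MiR-218a-5p was at 15.5, 109, 40.3 and 81.3 CPM under insulin and at 118, 49.6, 919, 238 and 222 CPM in WT (-2.28 ± 0.74, FDR = 0.0748). It rested on 1 to 8 reads per insulin library. MiR-27a-5p, the passenger strand of miR-27a, was at 836, 465, 302 and 224 CPM under insulin and at 744, 436, 290, 700 and 460 CPM in WT. The groups overlapped over most of their range, with a log2 fold change of -0.04 (95% interval -0.98 to 0.91), while placebo-treated ZDF serum was at 31.7 to 237 CPM and gave -1.84 ± 0.46 against WT (FDR = 0.0262).

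**Figure D2:**
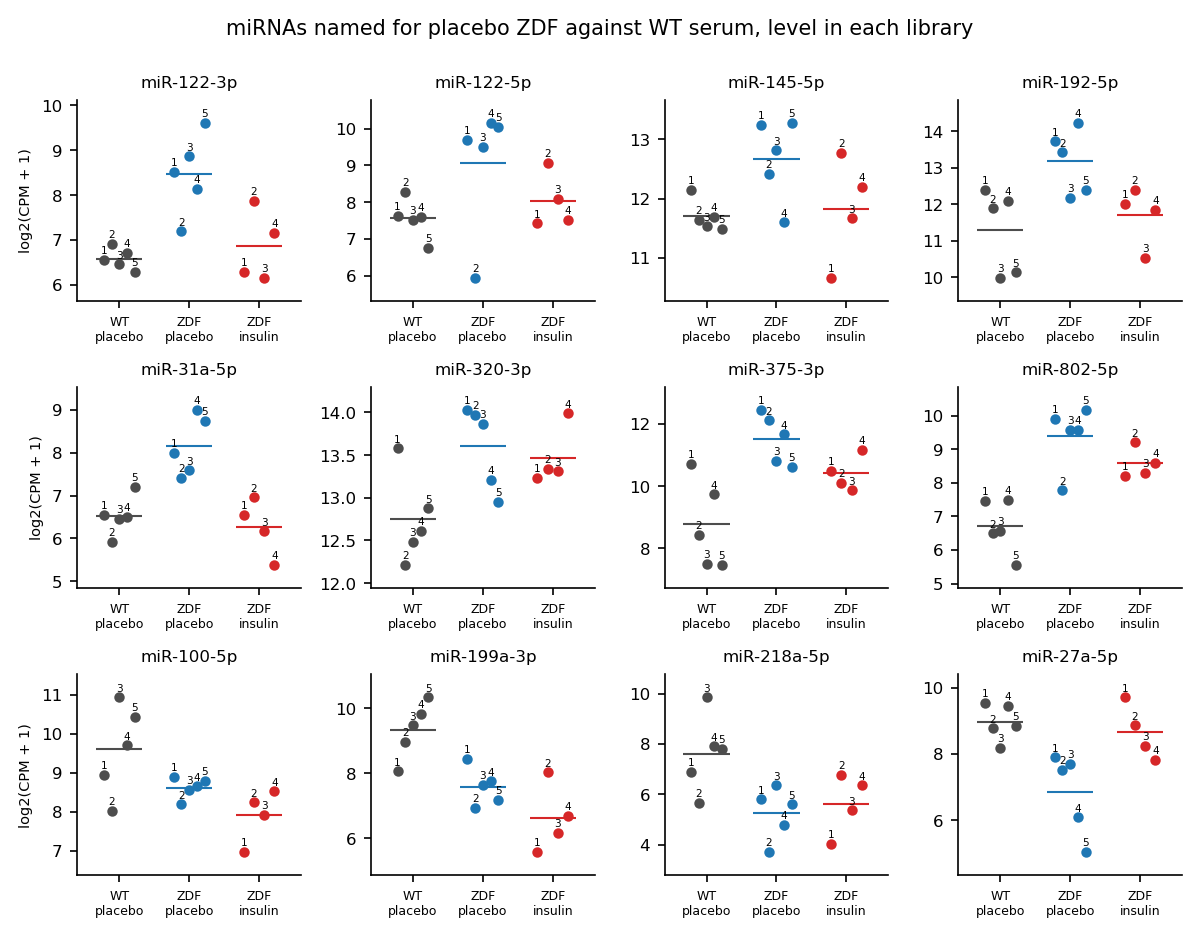
The level of each of the 12 miRNAs named for placebo ZDF against WT serum, as log2(CPM + 1), in every library of the 3 groups, with replicate numbers at the points and lines at the group means. Insulin-treated libraries are all above WT for miR-802-5p and all below WT for miR-199a-3p, and the red and grey points mix for miR-27a-5p, miR-31a-5p and miR-122-5p.

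Red cell miRNAs were higher in insulin-treated ZDF serum. Of the 4 fitted members of the erythroid list 3 were called higher, against 7.79% of all miRNAs tested, and the median log2 fold change of the 4 was 1.15, beside -0.04 over all 154. The count fell to 0 without insulin replicate 3 and with extraction controls, and to 1 without insulin replicate 1 and with all serum groups in 1 fit. MiR-144-5p was at 851, 533, 967 and 976 CPM under insulin and at 406, 159, 405, 477 and 353 CPM in WT, with no overlap (1.35 ± 0.40, FDR = 0.0595). MiR-486, which is abundant in red cells, was at 179989, 110959, 136788 and 128966 CPM under insulin and at 47857, 60631, 59459, 122201 and 83448 CPM in WT, with only WT replicate 4 inside the insulin range (1.07 ± 0.36, FDR = 0.0748). MiR-451-5p, the most red-cell-restricted of the list, was at 103200, 114499, 163370 and 191680 CPM under insulin and at 25179, 13263, 85186, 29526 and 182347 CPM in WT. WT replicate 5 lay among the insulin libraries, and the other four WT libraries lay below them (1.23 ± 0.54, FDR = 0.177). MiR-144-3p was not called (0.71 ± 0.38, FDR = 0.302), and miR-451-3p was too rare for the fit. Summed over the list, the level was 233932 to 331644 CPM under insulin, 75377 to 275861 CPM in WT and 79214 to 179629 CPM in placebo-treated ZDF serum.

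A measure of hemolysis was on average higher under insulin as well. It sets the reads of miR-451-5p, which red cells carry, over those of miR-23a-3p on the log2 scale. MiR-451-5p is itself one of the red cell miRNAs called higher, so the direction of the ratio is not independent of that call. This ratio was 3.52 ± 0.25 (SD, n = 4) under insulin and 1.495 ± 1.697 (SD, n = 5) in WT, a difference of 2.02 (exact two-sided permutation p = 0.0476, or 0.0952 after Benjamini-Hochberg adjustment over 4 library measures). WT replicates 3 and 5 stood at 3.24 and 3.297, within the insulin range of 3.18 to 3.79, and the other WT libraries at -0.51 to 0.79. In placebo-treated ZDF serum it was 0.68 ± 0.74 (SD, n = 5). A second ratio took miR-486 in place of miR-451-5p, and there the groups did not overlap. It was 3.14 to 4.30 under insulin and 1.59 to 2.83 in WT, with WT replicates 3 and 5 at 2.72 and 2.17. MiR-486 was also called higher, so this ratio is not independent of the calls either. With the ratio built on miR-451-5p as a covariate, 33 miRNAs were called, among them 18 of the 30. Of the 4 erythroid miRNAs 1 was still called higher. MiR-451-5p, which is part of the ratio, went to -0.015 there. Whether red cell lysis during sampling had a part in these differences was not tested.

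The miR-106b-25 cluster, whose members are processed from the Mcm7 transcript and act on cell cycle regulators, held 3 miRNAs called higher among 6 fitted, against 7.79% of all miRNAs tested, with a median log2 fold change of 0.95. The count fell to 0 without insulin replicate 3 and with extraction controls, and to 1 with all serum groups in 1 fit. With the hemolysis ratio as a covariate it was also 1, at a median of 0.79, and the part of red cell lysis in it was not tested. MiR-25-3p was at 91952, 47128, 84803 and 92354 CPM under insulin and at 37943, 21755, 45561, 38882 and 41352 CPM in WT. The groups did not overlap, although insulin replicate 2 stood close to WT (1.24 ± 0.35, FDR = 0.0564). MiR-93-5p was at 49867, 38708, 65080 and 56555 CPM under insulin and at 24651, 27290, 30330, 25489 and 23607 CPM in WT, again with no overlap (1.13 ± 0.32, FDR = 0.0564). MiR-106b-3p was at 866, 273, 806 and 508 CPM under insulin and at 220, 109, 347, 372 and 353 CPM in WT, where insulin replicate 2 fell within the WT range (1.32 ± 0.46, FDR = 0.0875). The other strands of the cluster were not called: miR-25-5p gave 0.77 ± 0.45, miR-93-3p -0.20 ± 0.50 and miR-106b-5p 0.00 ± 0.54. None of the called strands passed the test for placebo-treated ZDF against WT serum, at -0.10 ± 0.28 for miR-25-3p, 0.19 ± 0.25 for miR-93-5p and -0.45 ± 0.39 for miR-106b-3p. Insulin-treated against placebo-treated ZDF serum gave 1.25 ± 0.28 (FDR = 0.0275), 0.85 ± 0.25 (FDR = 0.0646) and 1.66 ± 0.40 (FDR = 0.0342).

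MiR-93-5p and miR-25-3p share their seeds with members of the miR-17-92 cluster, a related cluster that also acts on the cell cycle, and none of the 6 fitted members of that cluster was called. MiR-17-5p and miR-20a-5p, with the seed AAAGUGC of miR-93-5p, gave 0.47 ± 0.35 and 0.28 ± 0.35. MiR-92a-3p, with the seed AUUGCAC of miR-25-3p, was at 58459 to 120251 CPM under insulin and 29179 to 111381 CPM in WT and gave 0.70 ± 0.39 (FDR = 0.324). The most abundant other members, miR-19b-3p and miR-19a-3p, gave 0.12 ± 0.33 and 0.04 ± 0.33.

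The remaining higher miRNAs belonged to other groups. MiR-301a-3p, a member of the miR-130/301 family, was at 1207, 1476, 2397 and 2561 CPM under insulin and at 960, 952, 1165, 641 and 1158 CPM in WT (1.07 ± 0.35, FDR = 0.0748). MiR-505-3p was at 882, 834, 1481 and 915 CPM under insulin and at 377, 278, 753, 819 and 698 CPM in WT (0.97 ± 0.40, FDR = 0.158). Neither overlapped between the groups. MiR-15a-5p, which acts on cell cycle and survival genes such as Bcl2, was at 13430, 14352, 17909 and 20227 CPM under insulin and at 8010, 11329, 8686, 8089 and 16664 CPM in WT (0.76 ± 0.32, FDR = 0.162). It was the only one of 6 fitted miR-15/16 miRNAs called, against 7.79% called higher of all miRNAs tested. MiR-16-5p gave 0.50 ± 0.34, miR-497-5p -0.86 ± 0.45 and miR-15b-5p -0.51 ± 0.48, and the median of the 6 was 0.03. MiR-301a-3p, miR-505-3p and miR-15a-5p all lost the call without insulin replicate 3 and with extraction controls.

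Most fitted miRNAs of the mesenchyme and bone list were lower in insulin-treated ZDF serum. Of the 25 miRNAs of the mesenchyme and bone list 22 had a read and 12 could be fitted, and 10 of the 12 were called lower (11.7% of all miRNAs tested were), with a median log2 fold change of -1.65 beside -0.04 over all. The count fell to 1 without insulin replicate 3, to 2 without insulin replicate 1 and with all serum groups in 1 fit, and to 4 with extraction controls. The list holds 3 of the 4 miRNAs that the study names as lower in placebo-treated ZDF serum, miR-199a-3p, miR-100-5p and miR-218a-5p. MiR-199a-5p, from the other strand of the miR-199a hairpin, was at 46.4, 164, 131 and 163 CPM under insulin and at 186, 308, 550, 387 and 299 CPM in WT with no overlap (-1.36 ± 0.48, FDR = 0.0875). MiR-214-3p, transcribed with miR-199a and known to hold back osteoblasts, was at 108, 396, 80.6 and 366 CPM under insulin and at 397, 1111, 340, 417 and 606 CPM in WT, with WT replicate 3 inside the insulin range (-1.25 ± 0.51, FDR = 0.158).

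The miR-99/100 and miR-125 families, which are partly transcribed together, made up 5 of the 10. MiR-99a-5p was at 603, 1545, 1037 and 1138 CPM under insulin and at 1229, 754, 8658, 2845 and 4987 CPM in WT (-1.70 ± 0.54, FDR = 0.0723). MiR-99b-5p was at 61.9, 273, 80.6 and 102 CPM under insulin and at 235, 377, 499, 402 and 575 CPM in WT (-1.61 ± 0.48, FDR = 0.0595). MiR-125b-5p was at 77.4, 478, 181 and 264 CPM under insulin and at 289, 476, 1165, 566 and 1949 CPM in WT (-1.76 ± 0.55, FDR = 0.0723). In each of them 1 or 2 WT libraries lay inside the insulin range, and WT replicates 3 and 5 were the highest of the 9. MiR-125a-5p, at 483 to 2132 CPM under insulin and 1273 to 3575 CPM in WT, gave -1.03 ± 0.42 (FDR = 0.158). MiR-10b-5p, a Hox cluster miRNA, was at 155, 82.0, 30.2 and 0 CPM under insulin, the last with 0 reads, and at 138 to 338 CPM in WT (-1.74 ± 0.62, FDR = 0.0910). Its near-identical relative miR-10a-5p, which is not on the list, was at 101 to 396 CPM under insulin and 184 to 1079 CPM in WT (-1.22 ± 0.52, FDR = 0.162). The cartilage miRNA miR-140 stood apart: miR-140-3p gave 0.11 ± 0.34 and miR-140-5p 0.13 ± 0.40. Since miR-140-3p holds most of the reads of the list, the summed level of the list was 26052 to 37649 CPM under insulin and 31025 to 49771 CPM in WT.

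Of this list 11 miRNAs could be fitted for placebo-treated ZDF against WT serum, and 2 were called lower, against 1.83% of all miRNAs tested. That fit gave -1.31 ± 0.45 (FDR = 0.161) for miR-100-5p, -0.68 ± 0.38 for miR-99b-5p, -1.03 ± 0.44 for miR-125b-5p, -0.74 ± 0.45 for miR-199a-5p and -0.01 ± 0.34 for miR-125a-5p. Insulin-treated against placebo-treated ZDF serum gave -0.62 ± 0.35, -0.97 ± 0.47, -0.77 ± 0.40, -0.71 ± 0.51 and -1.05 ± 0.39 for the same miRNAs in that order, of which the last was called (FDR = 0.116). In that fit the list had 2 called lower and 1 called higher among 10. Of all miRNAs tested 15.2% were called lower and 11.3% higher, so these counts are near what all miRNAs gave.

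**Figure D3:**
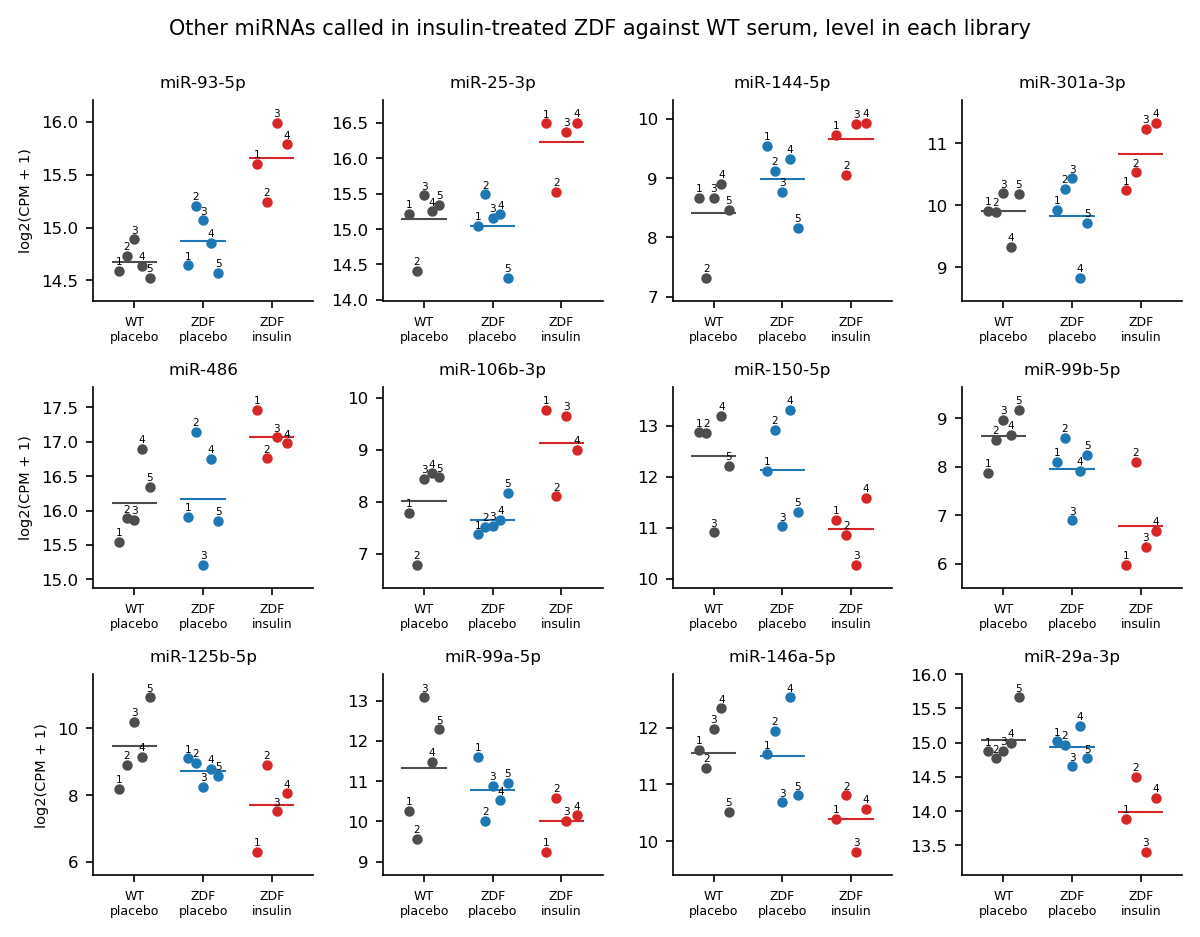
Levels as log2(CPM + 1) in every library for the 6 higher and the 6 lower called miRNAs with the smallest p-values outside the study's 12, with replicate numbers at the points and lines at the group means. MiR-93-5p, miR-25-3p, miR-144-5p and miR-301a-3p are higher in all 4 insulin libraries than in all 5 WT libraries, and WT replicates 3 and 5 are the highest points for miR-125b-5p and miR-99a-5p.

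A muscle miRNA was lower as well, and the WT libraries with the most of it were also those with the most miR-99a-5p and miR-125b-5p. MiR-133a-3p was at 1176, 7121, 1491 and 5672 CPM under insulin and at 1332, 1924, 34652, 11128 and 21658 CPM in WT, so that WT replicates 3, 4 and 5 were above every insulin library and WT replicates 1 and 2 among them (-1.85 ± 0.71, FDR = 0.126). It was the only one of the 16 striated muscle miRNAs fitted, and 11 of the 16 had a read. The call of miR-133a-3p was lost without insulin replicate 3, without insulin replicate 1 and with all serum groups in 1 fit. It was also lost without WT replicates 3 and 5, where the log2 fold change was -0.21. MiR-133b-3p had 82 and 68 reads in WT replicates 3 and 5 and 0 to 6 in the other 7 libraries, and miR-1b had 58 and 25 in these 2 against 0 to 16. MiR-208b-3p, with 90 reads in all 9 libraries, was unlike them. It was at 30.9, 95.7, 60.4 and 122 CPM under insulin and at 9.79, 0, 72.4, 89.4 and 391 CPM in WT. WT replicate 3 lay inside the insulin range there and WT replicate 5 above it. The defining muscle miRNAs miR-1-3p, miR-206-3p and miR-499-5p held 61, 6 and 72 reads in all 9 libraries, and the 5 at 0 reads were miR-1-5p, miR-133b-5p, miR-133c, miR-206-5p and miR-208b-5p. The summed level of the list was 1238 to 7436 CPM under insulin, 1479 to 36281 CPM in WT and 1143 to 10880 CPM in placebo-treated ZDF serum. With the level of miR-133a-3p as a covariate, 6 of the 12 fitted miRNAs of the mesenchyme and bone list were called lower, at a median of -1.05. Of all 154 miRNAs 12 were called lower in that fit. Without WT replicates 3 and 5, 5 of the list were called lower at a median of -0.91, against 17 of all 151 miRNAs fitted. MiR-199a-3p was called in both, at -2.02 and -2.08 (FDR = 0.118 and 0.00294), while miR-99a-5p, at -0.52 and -0.44, and miR-218a-5p, at -1.16 with the covariate and too rare for the fit without the 2 libraries, were called in neither. The part of muscle RNA in these differences was not tested.

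**Figure D4:**
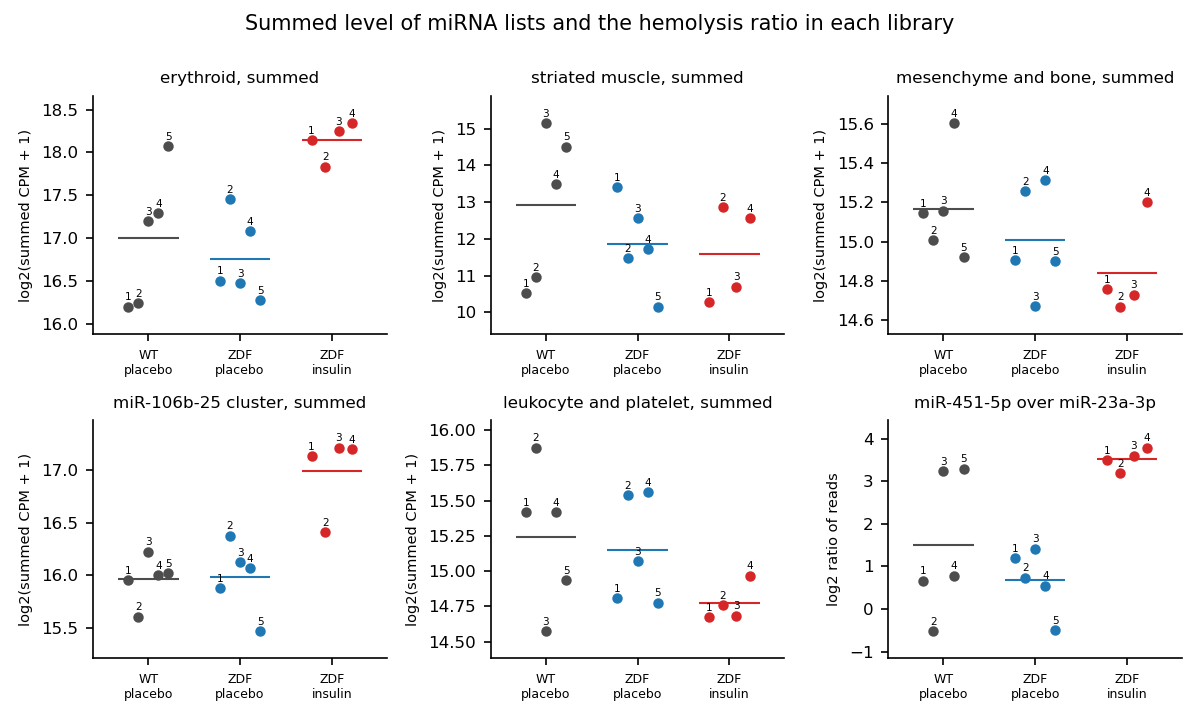
The summed level of 5 miRNA lists, as log2(summed CPM + 1), and the log2 hemolysis ratio in every library of the 3 groups, with replicate numbers at the points and lines at the group means. WT replicates 3 and 5 stand near the insulin libraries in the ratio and highest in the muscle sum, and insulin replicate 2 is the lowest insulin library in the erythroid and miR-106b-25 sums.

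Of the 9 fitted leukocyte and platelet miRNAs 2 were called lower, with a median of -0.23, against 11.7% called lower of all miRNAs tested, so the count is near what all miRNAs gave. It was 0 without insulin replicate 3 and with extraction controls, and 1 without insulin replicate 1, with all serum groups in 1 fit and with the hemolysis covariate. MiR-150-5p, a miRNA of mature lymphocytes, was at 2290, 1859, 1239 and 3070 CPM under insulin and at 7481, 7410, 1926, 9341 and 4757 CPM in WT, with only WT replicate 3 inside the insulin range (-1.43 ± 0.41, FDR = 0.0564). Placebo-treated ZDF serum was at 2085 to 10090 CPM and gave -0.23 ± 0.44 against WT. MiR-146a-5p, which restrains inflammatory signalling, was at 1346, 1791, 896 and 1525 CPM under insulin and at 3119, 2510, 4032, 5169 and 1465 CPM in WT (-1.13 ± 0.37, FDR = 0.0748), beside -0.03 ± 0.39 for placebo-treated ZDF against WT serum. With the hemolysis ratio as a covariate miR-150-5p went to -0.56 (FDR = 0.453). The myeloid and platelet miRNA miR-223-3p gave -0.23 ± 0.37, miR-142-5p -0.21 ± 0.38 and miR-181a-5p -0.42 ± 0.34. On the other side of 0, miR-146b-5p, with the seed GAGAACU of miR-146a-5p, gave 0.32 ± 0.47 and miR-142-3p 0.12 ± 0.44.

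MiR-29a-3p, which acts on collagen and other matrix genes, was at 15101, 23168, 10798 and 18682 CPM under insulin and at 29953, 27935, 30157, 32610 and 51809 CPM in WT. The groups did not overlap (-0.93 ± 0.32, FDR = 0.0875), and placebo-treated ZDF serum, at 25782 to 38779 CPM, gave -0.13 ± 0.26 against WT. MiR-29b-3p and miR-29c-3p, with the same seed AGCACCA, gave -0.78 ± 0.46 and -0.86 ± 0.40 and were not called, and the median of the 3 was -0.86. MiR-24-3p, of the miR-23/27/24 clusters, was at 7953, 14488, 6618 and 7440 CPM under insulin and at 13983, 30018, 16490, 9624 and 16809 CPM in WT (-0.86 ± 0.37, FDR = 0.162). It was the only one called of 7, against 11.7% called lower of all miRNAs tested. The other fitted miRNAs of these clusters ran from -0.49 to -0.04, among them miR-23a-3p at -0.26 ± 0.31 and miR-27a-3p at -0.42 ± 0.31, and the median was -0.42. MiR-152-3p, which shares its seed with miR-148a-3p and miR-148b-3p, was at 124 to 547 CPM under insulin and 492 to 1129 CPM in WT (-1.27 ± 0.46, FDR = 0.0980), beside -0.53 ± 0.33 for miR-148a-3p and -0.05 ± 0.46 for miR-148b-3p. MiR-3473, a rodent miRNA, was at 102 to 396 CPM under insulin and 201 to 1013 CPM in WT (-1.23 ± 0.51, FDR = 0.158). It was not called without insulin replicate 3. The calls of miR-29a-3p, miR-24-3p and miR-152-3p were lost without insulin replicate 3, without insulin replicate 1 and with extraction controls.

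Several lists had no call in the main comparison. They were the let-7 family (10 fitted, median 0.33), the miR-30 family (7, -0.37), the smooth muscle list (3, 0.33), the endothelial list (4, -0.31), the epithelial list (4, -0.32), the miR-103 and miR-107 pair (2, 0.53), the neural list (2, -0.05) and the miR-192 and miR-194 group, of which miR-192-5p alone was fitted. Among their most abundant members let-7i-5p gave 0.59 ± 0.35, let-7g-5p -0.07 ± 0.32, miR-30a-5p -0.37 ± 0.39 and miR-143-3p -0.12 ± 0.43. MiR-126a-5p gave -0.42 ± 0.35, miR-203a-3p -0.01 ± 0.41, miR-103-3p 0.54 ± 0.31 and miR-128-3p 0.11 ± 0.37. The fitted members of these lists ran from -1.07 for let-7d-3p to 0.59 for let-7i-5p. MiR-30d-5p, at 866 to 1927 CPM under insulin and 1949 to 2932 CPM in WT, did not overlap between the groups but was not called (-0.53 ± 0.33, FDR = 0.344). Of the liver list and the pancreas list, with 2 fitted members each, 1 each was called higher, miR-802-5p and miR-375-3p, against 7.79% of all miRNAs tested. MiR-7a-1-3p of the pancreas list gave 0.00 ± 0.40. The miRNAs often used as serum references did not pass the test in 9 of 10 cases, from -0.20 ± 0.50 for miR-93-3p to 0.54 ± 0.31 for miR-103-3p with miR-191a-5p at 0.12 ± 0.40, and the exception was miR-93-5p.

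**Figure D5:**
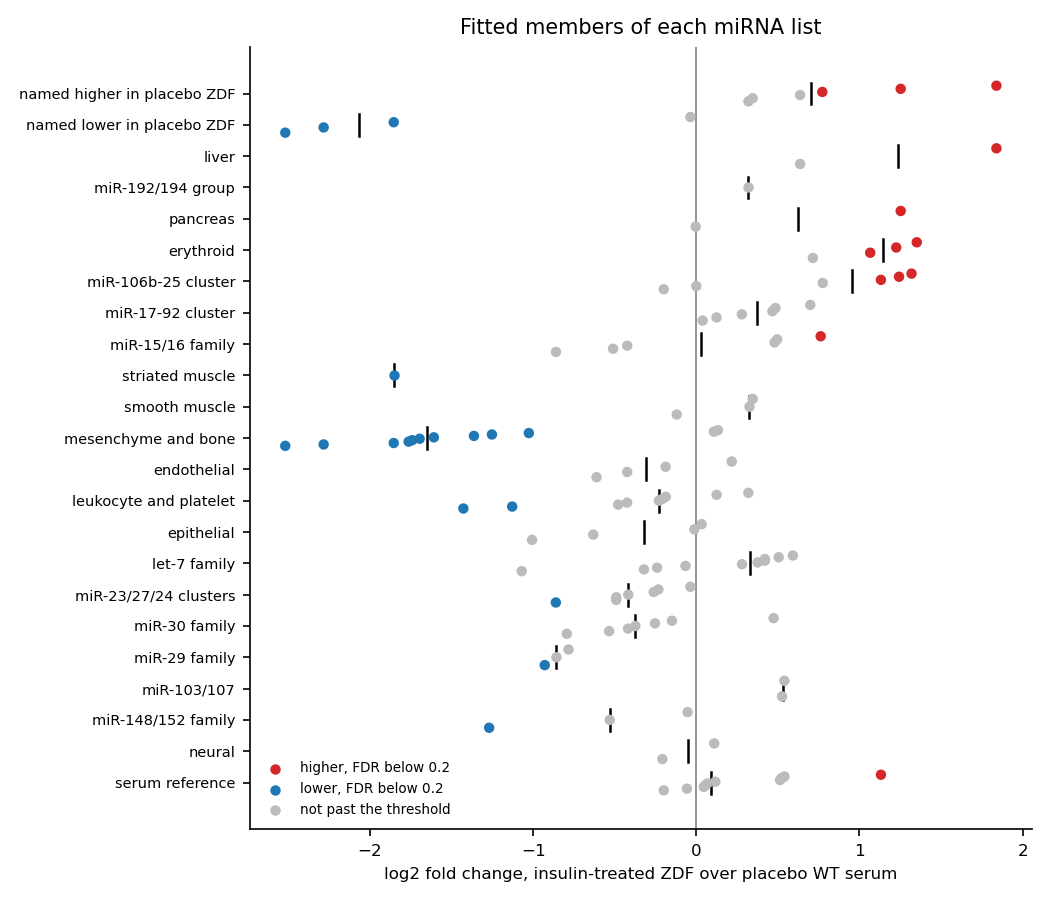
The log2 fold change (insulin-treated ZDF over placebo WT serum) of every fitted member of each miRNA list, with list medians as black bars. Red and blue points passed an FDR of 0.2 and grey points did not. Blue points gather in the mesenchyme and bone list, where 10 of 12 members are lower, and red points in the erythroid list and the miR-106b-25 cluster, where 3 members each are higher.

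The context group shows where placebo-treated ZDF serum stood for the called miRNAs. In the fit of placebo-treated ZDF against WT serum, 10 of 164 miRNAs (6.1%) were called, 7 higher (4.27%) and 3 lower (1.83%), and in the fit of insulin-treated against placebo-treated ZDF serum 40 of 151 (26.5%), 17 higher (11.3%) and 23 lower (15.2%). These fits share libraries with the main comparison, so their values are set side by side and are not independent. For miR-802-5p the main comparison, placebo-treated ZDF against WT and insulin against placebo in ZDF gave 1.84, 2.71 and -0.95. For miR-199a-3p the same values were -2.52, -1.82 and -0.74. For miR-25-3p they were 1.24, -0.10 and 1.25, for miR-486 1.07, 0.14 and 0.85, and for miR-15a-5p 0.76, -0.21 and 0.89. For miR-451-5p they were 1.23, -1.18 (FDR = 0.384) and 2.33 (FDR = 0.000315). For miR-150-5p they were -1.43, -0.23 and -1.27, for miR-146a-5p -1.13, -0.03 and -1.16, and for miR-29a-3p -0.93, -0.13 and -0.87.

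The miRNA share of the library was 1.21% ± 0.27 (SD, n = 4) under insulin and 2.04% ± 0.52 (SD, n = 5) in WT, with an exact permutation p of 0.0317 (0.0952 after adjustment over the 4 library measures), and 1.16% ± 0.35 (SD, n = 5) in placebo-treated ZDF serum. The number of miRNA reads (exact permutation p = 0.175, n = 4 and 5) and the miRNA reads per extraction control read (p = 0.492) did not pass the test. The smallest p that 4 against 5 libraries allow in this test is 0.0159.

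Of the 312 miRNAs with a read that were too rare for the fit, 5 had fewer reads in every insulin library than in every WT library and 0 the reverse, 1.6% of the 312. Among them miR-149-5p had 2, 6, 5 and 3 reads under insulin and 16, 8, 18, 23 and 32 in WT. MiR-542-3p had 0, 7, 1 and 3 against 23, 8, 8, 9 and 9, and miR-23a-5p 1, 5, 5 and 2 against 12, 7, 10, 8 and 22. In CPM, which takes the deeper WT libraries into account, all 3 overlapped between the groups.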

How the data were processed

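Small RNA of serum was sequenced with a biofluids kit, with 3 synthetic controls added at extraction. The authors trimmed reads with cutadapt, discarded those shorter than 17 nt, aligned the rest (bowtie, miRDeep2) to Rnor 6.0 and then to rat miRBase entries, and deposited whole read counts for 763 mature miRNAs. The RPM values that the authors deposited, scaled to all reads of a library, were used only to recover library totals. Normalized miRNA values and bone libraries were not used here.

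Libraries were grouped by their labels. Counts were fitted in edgeR 4.0.16 (R 4.3.3) with its quasi-likelihood test, TMM normalization and Benjamini-Hochberg adjustment, at an FDR below 0.2 as in the study, after filterByExpr with a count minimum of 10 and a total of 15. The filter came before the fit because earlier work on these data had found calls in simulations without change when rare miRNAs were included. Fold changes come from the 9-library fit, and CPM levels from TMM over the 3 groups. Single values were compared by exact two-sided permutation of log2(CPM + 1). The fits were tested on simulated data. Alternatives were DESeq2 1.42.0 and edgeR with other scalings, filters, covariates and left-out libraries.

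The members, the miRNA lists and the tests were chosen with earlier results of these data known. Named were the 12 miRNAs the study names, all called miRNAs, up to 4 abundant members of each list, 3 rare miRNAs and the 5 most abundant. MiR-30d-5p, let-7d-3p and miRNAs sharing a seed were added after their values were seen. The study lists as many animals as serum samples for each group. The labels do not tie a library to an animal or say whether libraries were made in batches. The p-values set group differences against the spread between these libraries.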

Additional observations from a re-analysis of the deposited data

Results flagged for a closer look

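In 6 of 80 groups of libraries checked, for the named miRNAs, 1 library lay far from the rest of its group by Dixon's criterion, which chance alone meets in about 1 in 20 groups. MiR-320-3p was at 16243 CPM in insulin replicate 4, against 9639 to 10347 in the other three. MiR-25-3p was at 47128 CPM in insulin replicate 2, against 84803 to 92354, and at 21755 CPM in WT replicate 2, against 37943 to 45561. MiR-144-5p was at 159 CPM in WT replicate 2, against 353 to 477. MiR-29a-3p was at 51809 CPM in WT replicate 5, against 27935 to 32610. MiR-505-3p was at 1481 CPM in insulin replicate 3, against 834 to 915.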

How the results depend on the processing

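In the main comparison 30 miRNAs were called. The count was 2 at an FDR below 0.05, 51 with total miRNA reads in place of TMM, 5 with scaling to the extraction controls, 6 with all serum groups in 1 fit and 2 to 44 with a library left out. DESeq2 called 29. For placebo-treated ZDF against WT serum 10 were called, with 6 at an FDR below 0.05, 37 with no filter and independent filtering, 33 with no filter and 8 to 17 with a library left out. For insulin-treated against placebo-treated ZDF serum 40 were called, with 3 at an FDR below 0.05 and 4 to 59 with a library left out. Leaving out a library moved the log2 difference of the miRNA share to between -0.89 and -0.61 (exact permutation p = 0.0286 to 0.0714), that of the miR-451-5p to miR-23a-3p ratio to between 1.52 and 2.47 (exact permutation p = 0.0357 to 0.107), that of miRNA reads to between -0.74 and -0.32 and that of miRNA reads per extraction control read to between 0.10 and 0.71.

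Some values changed sign. MiR-192-5p was at -0.014 with total miRNA reads and -0.20 without WT replicates 3 and 5. MiR-27a-5p was at 0.12 with extraction controls, 0.40 with the hemolysis covariate and -0.52 to 0.26 with a library left out. MiR-451-5p was at -0.015 with the hemolysis covariate. The cause was not tested. Over the other settings 339 values kept their direction and side of the threshold, 129 lost the call and 2 gained it (miR-192-5p at 1.89 and miR-122-5p at 1.26, both with the hemolysis covariate), and with a library left out 208 kept both and 90 lost the call. The covariate of miR-133a-3p and the fit without WT replicates 3 and 5 were chosen after seeing the data. The groups held different rats, of unlike genotype or treatment, so the design has no pairs of libraries across groups. Depth limits the rare miRNAs, and intervals cover the spread between these libraries only.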
